A study of Homo sapiens with 95 samples.

Results

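Of the 23895 genes listed for every well, 58 protein-coding genes of the short arm of chromosome 16 (16p) are described here. They were chosen from earlier results of these data, as a set of 16p genes with lower counts in GFP, CDKN2A and FAT1 cells than in HcRed cells, so their differences between populations are descriptions and carry no test. AALE, a bronchial epithelial line of human origin that has been immortalized, was measured by 3′ digital gene expression (3′DGE), which counts 1 unique molecular identifier (UMI) per captured molecule at the 3′ end of polyadenylated RNA. The 8 populations of this line, that is 8 genotypes, were each given the vehicle DMSO, cigarette smoke condensate (CSC, 24 µg/ml), benzo[a]pyrene (BaP, 173 µM) or the nitrosamine NNK (490 µM). HcRed cells carried an empty vector with that reporter and were the control for overexpression of NRF2 (gene NFE2L2), FGFR1, NRG1 or PIK3CA. GFP cells had received the plasmid PX458, which encodes SpCas9 and EGFP, with no guide RNA, and were the control for the CRISPR knockout populations FAT1 and CDKN2A. The comparisons used 82 wells with 1-digit replicate numbers in 31 groups, of which 25 had 3 wells, 1 had 2 and 5 had 1. The study calls the wells of a group biological replicates, and neither it nor the labels say how separate their cultures were, so p-values measure the spread between wells.

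An autosomal arm is present in a pair of copies in a normal cell, and its genes have no shared function. They are neighbours on 1 stretch of DNA, and a gene is in general controlled by its own promoter. Some neighbours on opposite strands start close together, as PALB2 and DCTN5 do, or overlap, as GLYR1 and UBN1 do. Apart from such pairs, a change in the level of 1 gene of an arm need not involve its neighbours. UMI counts measure RNA, and DNA copy number was not measured here. In bulk RNA, fewer cells of a kind and less RNA per cell cannot be told apart.

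The 58 genes spanned the arm from POLR3K (hg19 chr16:96407-103608), near the telomere, to BCKDK (chr16:31117428-31124112), near the centromere. By their known functions 8 act in transcription and chromatin, 7 in RNA processing and ribosome assembly, 9 in mitochondria, 15 in metabolism, membranes and trafficking, 5 in protein quality and ubiquitin, 7 in growth and kinase signalling, and 7 in cell division and DNA repair. A mean count above 1 per well was reached by 54 of the 58. Below that limit were STUB1 at 0.32, TELO2 at 0.89, TRAF7 at 0.96 and PIGQ at 1, and just above it were MAPK3 at 1.05, MAZ at 1.32 and E4F1 at 1.37. A mean count of at least 10 was reached by 31 members. ARL6IP1, which shapes tubules of the endoplasmic reticulum, was counted most, at a mean of 725 CPM, the count scaled to a common library size. RSL1D1, a nucleolar protein of ribosome assembly, followed at 458 CPM, and the glycolytic enzyme ALDOA at 173 CPM. PDPK1 and PDXDC1 have near-identical copies elsewhere on chromosome 16, so their counts are uncertain.

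Promoters are shown for the 3 named members whose window overlapped no other gene and reached at most 30 bases into their own, to show the sequence upstream of genes that lay low together. Each is the 250 bases before the RefSeq start, from a table of build GRCh38.p14, and each was found once on hg19 chromosome 16, at the positions given. Capitals mark the motif GGGCGG or its reverse complement CCGCCC, searched on both strands. PPP4C, a protein phosphatase, lies on the + strand with its window at chr16:30087065-30087314. TUFM, the mitochondrial elongation factor Tu, lies on the - strand with its window at chr16:28857670-28857919. KIF22, a kinesin of mitotic chromosomes, lies on the + strand with its window at chr16:29801822-29802071.
PPP4C: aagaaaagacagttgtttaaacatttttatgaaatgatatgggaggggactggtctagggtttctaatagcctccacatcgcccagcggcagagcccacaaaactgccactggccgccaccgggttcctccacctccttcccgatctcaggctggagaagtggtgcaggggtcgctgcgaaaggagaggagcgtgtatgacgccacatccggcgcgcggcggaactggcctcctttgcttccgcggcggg
TUFM: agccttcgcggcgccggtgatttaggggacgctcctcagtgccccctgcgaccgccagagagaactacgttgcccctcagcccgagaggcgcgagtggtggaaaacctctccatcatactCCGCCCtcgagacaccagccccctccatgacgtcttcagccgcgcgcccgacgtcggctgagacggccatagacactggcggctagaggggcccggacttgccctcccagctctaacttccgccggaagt
KIF22: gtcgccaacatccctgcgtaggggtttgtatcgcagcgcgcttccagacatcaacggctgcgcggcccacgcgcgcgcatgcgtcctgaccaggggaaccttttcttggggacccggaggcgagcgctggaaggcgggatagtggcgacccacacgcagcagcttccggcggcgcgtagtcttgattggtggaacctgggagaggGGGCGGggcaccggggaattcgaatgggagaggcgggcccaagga

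The motif was held by the windows of TUFM and KIF22 and not by that of PPP4C. It was present in 37 of the 52 member promoters found in the table (71.2%), against 67.2% of 8236 other genes tested in GFP cells and 42.3% of all 27305 promoters. CACGTG, the E-box, was present in 9 of the 52 (17.3%), against 9.02% and 6.49%. TGACGTCA, the cAMP response element, was present in 4 (7.69%), against 2.97% and 1.77%. The median GC content of the windows was 67.8% for members and 64.8% for the other genes tested. None of these shares was tested, and a match is not a bound site.

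Total counts ran from 692446 to 1895735 over the 82 wells, and genes near the limit of 1 count per well were measured with little precision. The overexpressed genes were higher in all wells of their own population than in all HcRed wells, with NFE2L2 for example at 120 to 169 CPM in NRF2 cells and 31.4 to 61.7 CPM in HcRed cells. FAT1 was counted at 0 to 4.3 CPM in FAT1 cells, 4.26 to 11.3 CPM in GFP cells and 6.58 to 25 CPM in HcRed cells. CDKN2A overlapped, at 18 to 26.6 CPM in CDKN2A cells and 19.7 to 35.8 CPM in HcRed cells, and a count at the 3′ end does not show whether an edited gene makes protein. The 8 basal epithelial markers, KRT5 and TP63 among them, were counted in all 82 wells. Markers of other cells were at low levels: of endothelium, VWF was at 0 in all wells and PECAM1 was counted in 65, up to 4.02 CPM, and of leukocytes, CD3E was at 0 in all, PTPRC was counted in 4 and CD14 in 50, up to 2.61 CPM. FOXJ1 of ciliated cells was at 0 in all wells and SCGB1A1 of secretory cells was counted in 2. The basal markers summed to 1120 to 1170 CPM in HcRed wells under DMSO. The sums were 718 to 873 CPM in GFP, 540 to 639 in CDKN2A and 446 to 489 in FAT1 wells. They were 1000 to 1160 CPM in NRF2, 745 to 793 in FGFR1, 615 to 710 in NRG1 and 547 to 633 in PIK3CA wells. That sum was lowest in the FAT1 population, where the 16p genes differed least of the 3 from HcRed, and its part in the values below was not tested. The 4 fibroblast markers summed to 1.36 to 4.94 CPM in HcRed, 0 to 2.51 in GFP, 1.21 to 2.96 in CDKN2A, 1.63 to 2.34 in FAT1 and 1.36 to 4.33 in NRF2 wells under DMSO. They reached 2.06 to 8.03 CPM in FGFR1, 6.49 to 15.8 in NRG1 and 5.84 to 11.3 in PIK3CA wells.

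The arm was first summarised by well as the mean log2 CPM of the 54 members. Under DMSO it was 3.90 ± 0.05 (SD, n = 3) in HcRed cells and 3.26 ± 0.10 (n = 3) in GFP cells, a difference of -0.64. The lowest HcRed well was at 3.84 and the highest GFP well at 3.37. CDKN2A cells stood between them at 3.52 ± 0.05 (n = 3), with wells from 3.46 to 3.56. FAT1 cells were at 3.76 ± 0.04 (n = 3), from 3.73 to 3.81, below the HcRed wells and overlapping the NRG1 wells at 3.73 to 3.82. NRF2 cells at 3.92 ± 0.01, PIK3CA cells at 3.92 ± 0.06 and FGFR1 cells at 3.89 ± 0.06 (n = 3 each) overlapped the HcRed range. From highest to lowest the populations were thus PIK3CA and NRF2, HcRed, FGFR1, NRG1, FAT1, CDKN2A and GFP, and wells of neighbours in this order overlapped except from FGFR1 to NRG1, from FAT1 to CDKN2A and from CDKN2A to GFP. GFP and HcRed wells under DMSO lay in 1 plate row and in different columns, so for this pair column and population cannot be told apart. In the columns they shared, GFP wells (3.18 to 3.37) were below NRG1 wells (3.73 to 3.82), and CDKN2A wells (3.46 to 3.56) were below PIK3CA wells (3.84 to 3.97). CDKN2A wells were also below the NRF2 wells of their own row, at 3.91 to 3.93. As a share of all counts the members took 0.255% in HcRed and 0.159% in GFP cells.

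**Figure D1:**
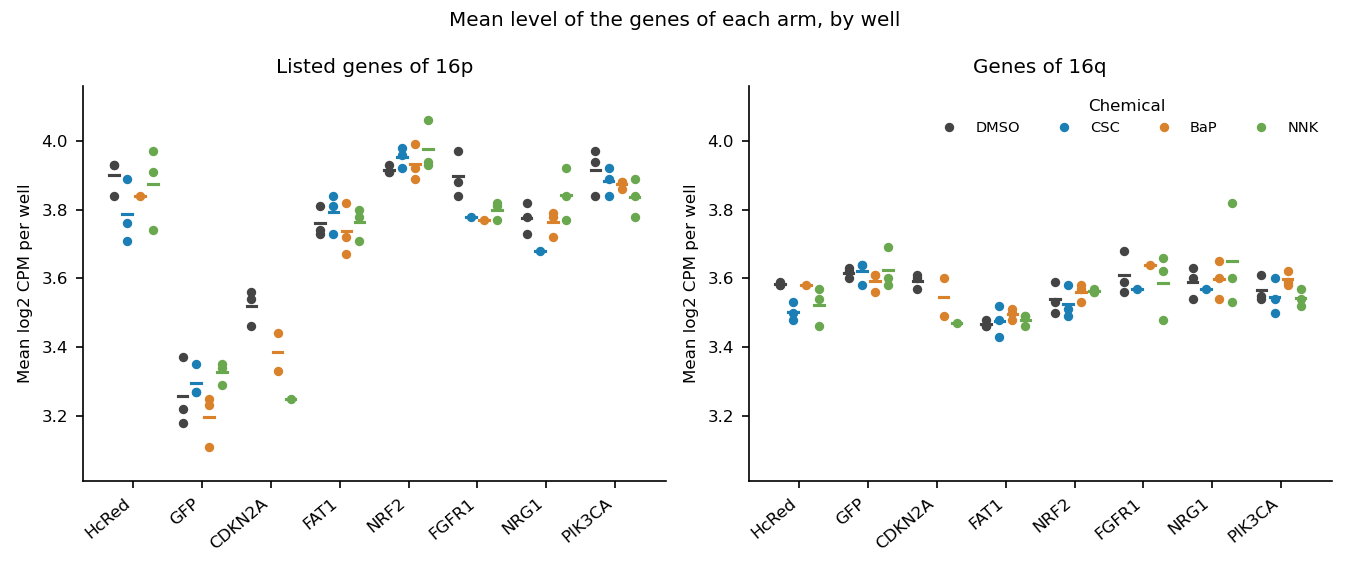
Each point is 1 well with a 1-digit number, at the mean log2 CPM of the listed 16p genes (left) or of the 16q genes (right), by population on the x axis and by chemical in colour, with a dash at each group mean. On the left all 12 GFP wells lay between 3.11 and 3.37 and no HcRed well below 3.71, and on the right GFP and HcRed wells overlapped.

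Over all 4 chemicals the GFP wells ran from 3.11 to 3.37 (n = 12) and the HcRed wells from 3.71 to 3.97 (n = 10). The CDKN2A wells ran from 3.25 to 3.56 (n = 6) and reached into the range of all GFP wells, with 3.33 as their lowest value under BaP and 3.25 in the single well under NNK. Genes of the long arm (16q) gave no such order: their mean was 3.58 ± 0.01 in HcRed, 3.62 ± 0.02 in GFP, 3.59 ± 0.02 in CDKN2A and 3.46 ± 0.01 in FAT1 cells under DMSO (n = 3 each). In FAT1 cells the 16q mean was thus also below that of HcRed cells, by about the amount seen for the members.

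Gene by gene, 52 members could be fitted in GFP against HcRed cells under DMSO, and all 52 had a log2 difference below 0, where 51.6% of all genes did. The median was -0.71, a ratio of 0.61, with quartiles at -0.96 and -0.54, against a median of -0.02 over all genes tested. By limma at an adjusted p under 0.05 (the call used throughout) 16 members were lower, as were 4.86% of all genes, and since such values chose the members these counts are descriptions only. In 31 members every GFP well was below every HcRed well, as for 13.3% of all genes. The members with a mean count of at least 10 had a median of -0.72, and the SD of their differences was 0.25 while the median standard error (SE) of 1 difference was 0.27. The spread among these members under DMSO was therefore no larger than their median error. In the same comparison the SD and median SE were 0.30 and 0.29 under CSC, and 0.38 and 0.30 under NNK. Members with small errors, such as ARL6IP1 and RSL1D1 below, still differed from each other by more than those errors.

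Among genes of transcription and chromatin, POLR3K, a subunit of RNA polymerase III, had 108, 80.9 and 89.6 CPM in the HcRed wells and 47.8, 51 and 43.1 CPM in the GFP wells. The groups did not overlap, and the log2 difference was -0.95 (SE 0.14). In CDKN2A cells it had 62.8, 61.5 and 67 CPM, also below all HcRed wells, and in FAT1 cells 103, 89 and 93.7 CPM, within the HcRed range. All 6 members of this role that were fitted were below 0 in GFP cells, with a median of -0.97. Those called lower were POLR3K, CREBBP, a histone acetyltransferase, at -1.34 (SE 0.41), GLYR1, a nucleosome-binding protein, at -1.18 (SE 0.32), and UBN1, of the HIRA histone chaperone, at -0.99 (SE 0.32). CREBBP and UBN1 are named after their values were seen. GLYR1 was at -0.02 (SE 0.25) in CDKN2A cells.

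Among genes of RNA processing, RSL1D1 had 457, 430 and 472 CPM in HcRed and 264, 272 and 253 CPM in GFP wells. The gap between these groups was several times the range within either, and the log2 difference was -0.78 (SE 0.07). In the CDKN2A wells it had 434, 367 and 473 CPM and in the FAT1 wells 418, 456 and 443 CPM, which overlapped the HcRed wells in both cases. The splicing factor SRRM2 gave -0.67 (SE 0.25) in GFP and -0.82 (SE 0.26) in CDKN2A cells, and was called in the second only. CARHSP1, an RNA-binding protein of low count, had the lowest member value in GFP cells at -2.70 (SE 0.81).

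In the mitochondrial role TUFM had 80.6, 74.1 and 56.8 CPM in HcRed, 35.2, 38 and 45.9 CPM in GFP, 54.9, 52 and 54.9 CPM in CDKN2A and 76.5, 75.5 and 56.2 CPM in FAT1 wells. GFP and CDKN2A wells were all below the HcRed wells, and FAT1 wells were mixed with them. The log2 difference in GFP cells was -0.79 (SE 0.16). MRPS34, a protein of the mitochondrial ribosome, was at -0.76 (SE 0.27) in GFP and -0.89 (SE 0.27) in CDKN2A cells, with the second called. The 9 members of this role were all below 0 in GFP cells, with a median of -0.76, and TUFM alone was called.

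**Figure D2:**
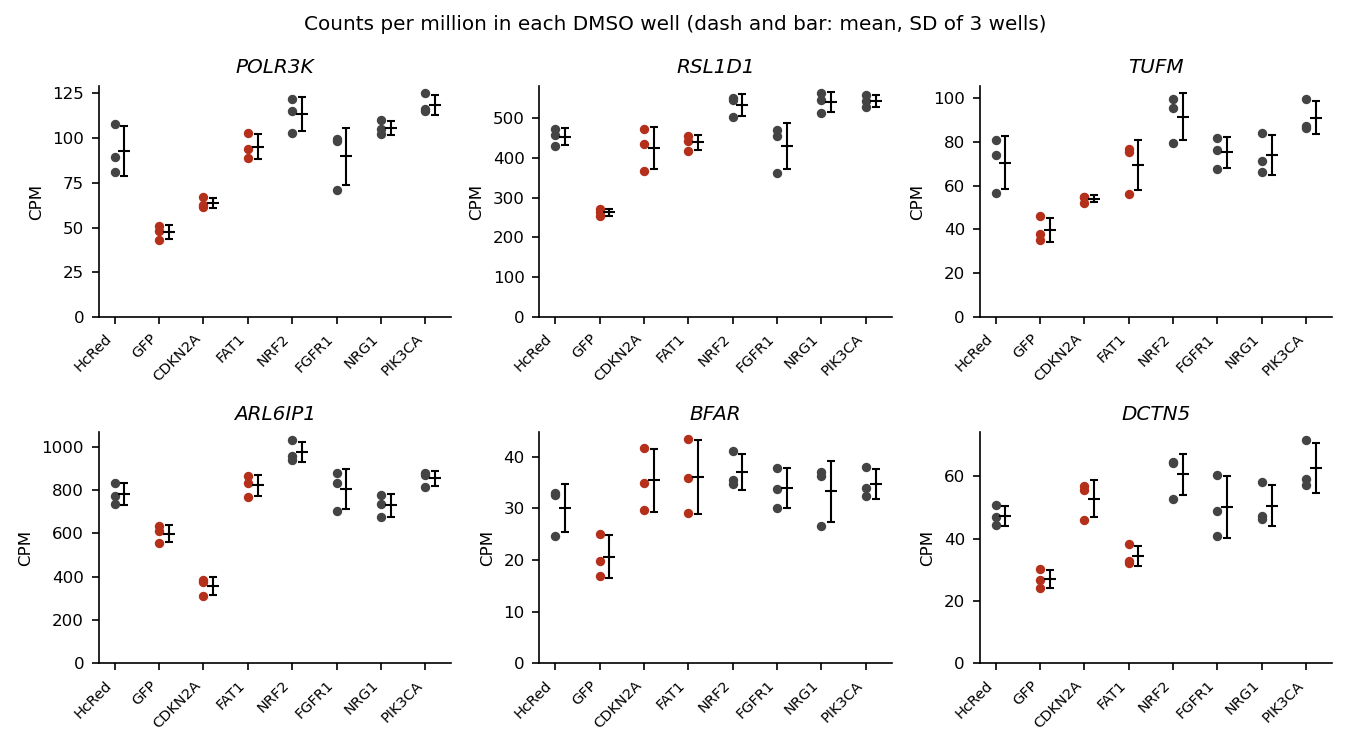
Each panel gives the CPM of 1 gene in every DMSO well (points), by population on the x axis, with the mean and SD of 3 wells beside them and the y axis from 0. GFP wells of RSL1D1 lay at 253 to 272 CPM against 430 to 472 in HcRed wells, while the lowest ARL6IP1 values, 312 to 384 CPM, were in CDKN2A wells.

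The largest role, metabolism, membranes and trafficking, held 7 of the 16 calls in GFP cells. ARL6IP1 had 737, 773 and 835 CPM in HcRed, 633, 556 and 609 CPM in GFP and 384, 312 and 378 CPM in CDKN2A wells. The 3 groups did not overlap, and unlike most members it was lower in CDKN2A cells, at -1.13 (SE 0.11), than in GFP cells, at -0.38 (SE 0.05). EMP2, a tetraspan membrane protein, had the same order, with 128, 134 and 128 CPM in HcRed, 77.9, 76.9 and 80.6 CPM in GFP and 51.8, 52 and 57.3 CPM in CDKN2A wells. Its FAT1 wells, at 102, 91.3 and 107 CPM, were also below all HcRed wells, and its differences were -0.72 (SE 0.11) in GFP, -1.27 (SE 0.15) in CDKN2A and -0.38 (SE 0.11) in FAT1 cells. LITAF, an endosomal membrane protein, was alike in GFP and CDKN2A cells, at -0.78 (SE 0.11) and -0.76 (SE 0.14), and at -0.04 (SE 0.10) in FAT1 cells. ALDOA was at -0.57 (SE 0.10), -0.39 (SE 0.14) and -0.28 (SE 0.10) in that order, with the first 2 called.

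Periplakin (PPL), a protein of desmosomes, had the largest mean difference over the 3 populations among members with a mean count of at least 10, at -0.90. It had 23, 29.9 and 17.9 CPM in HcRed, 9.22, 8.9 and 9.19 CPM in GFP, 11.1, 11.2 and 8.45 CPM in CDKN2A and 19.6, 19.9 and 20.4 CPM in FAT1 wells. PPP4C at -0.83, EMP2 at -0.79, and PMM2, of mannose metabolism, and MRPS34, both at -0.68, followed. At the other end stood PALB2, a partner of BRCA2 in DNA repair, at 0.05, the ubiquitin ligase BFAR at -0.03, the repair nuclease ERCC4 at -0.11, the splicing factor LUC7L at -0.14 and NUBP1, of iron-sulfur cluster assembly, at -0.28. Even these 5 were below 0 in GFP cells, from -0.71 (SE 0.26) for NUBP1 to -0.54 (SE 0.35) for LUC7L, and none of them was called there. HMOX2, the constitutive heme oxygenase, differed between the populations, at -1.28 (SE 0.28) in GFP and 0.01 (SE 0.22) in CDKN2A cells.

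The growth signalling role was counted low, at mean levels up to 6.54 CPM, and the protein quality role held BFAR at 34.9 and USP7 at 15.5 CPM. Neither had a call in GFP cells, with medians of -0.55 over 4 protein quality and -0.52 over 5 growth signalling members. BFAR had 24.7, 32.6 and 32.9 CPM in HcRed and 25.1, 17 and 19.8 CPM in GFP wells, which overlapped. The deubiquitinase USP7 was at -0.56 (SE 0.27) in GFP cells, the kinase PDPK1 at -0.52 (SE 0.37), and MLST8, a subunit of the mTOR complexes, at -1.14 (SE 0.53). In cell division and DNA repair 7 of 7 members were below 0, with a median of -0.66, and DCTN5, a dynactin subunit, was called. It had 44.4, 46.9 and 50.8 CPM in HcRed, 30.2, 24.3 and 26.9 CPM in GFP, 32.9, 32.2 and 38.3 CPM in FAT1 and 57, 46.1 and 55.5 CPM in CDKN2A wells. GFP and FAT1 wells were thus below all HcRed wells and CDKN2A wells were not.

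In CDKN2A against HcRed cells 45 of 53 members were below 0, against 50.1% of all genes, with a median of -0.39. Limma called 13 lower, against 7.54% of all genes. The count fell to 7 without HcRed replicate 1 and to 7 without CDKN2A replicate 3, and DESeq2 called 5. The SD over members with a mean count of at least 10 was 0.41, above their median SE of 0.25, so these members were more uneven here than in GFP cells. KIF22 at -0.94 (SE 0.28) and THUMPD1, an adaptor of tRNA acetylation, at -0.86 (SE 0.23) were among those called.

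In FAT1 against HcRed cells 35 of 55 members were below 0, against 52.5% of all genes, and the median of -0.15 was close to that of 16q genes at -0.16. The limma threshold called 3 lower, against 6.47% of all genes: EMP2, DCTN5 at -0.46 (SE 0.16), and NME4, a mitochondrial nucleoside diphosphate kinase, at -1.66 (SE 0.58). NME4 is named because the count is small, after its values were seen. DESeq2 called 0 of these, the limma count was 1 without HcRed replicate 1 or without FAT1 replicate 1, and the median moved to -0.06 without the latter and to -0.09 without FAT1 replicate 3. In the 4 overexpression populations the medians against HcRed cells were 0.11 for NRF2, 0.07 for PIK3CA, -0.01 for FGFR1 and -0.10 for NRG1. Without replicate 3 the median was -0.03 for NRF2, 0 for PIK3CA and -0.16 for NRG1 cells, and without replicate 2 that of NRG1 cells was -0.03. Higher calls were RSL1D1 and ARL6IP1 in NRF2 cells (3.39% of all genes called higher), POLR3K, RSL1D1 and ALDOA in PIK3CA cells (3.4%) and RSL1D1 in NRG1 cells (2.1%), and lower calls were EMP2 and PPL in NRG1 cells (0.998%). Of these, RSL1D1 in NRG1 cells was lost without replicate 1, and 1 call each was left in NRF2 cells without replicate 1 or 3 and in PIK3CA cells without replicate 2. In FGFR1 cells limma called 0 of 55 members and 0.905% of all genes in either direction, and 1 member had an unadjusted p under 0.05.

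**Figure D3:**
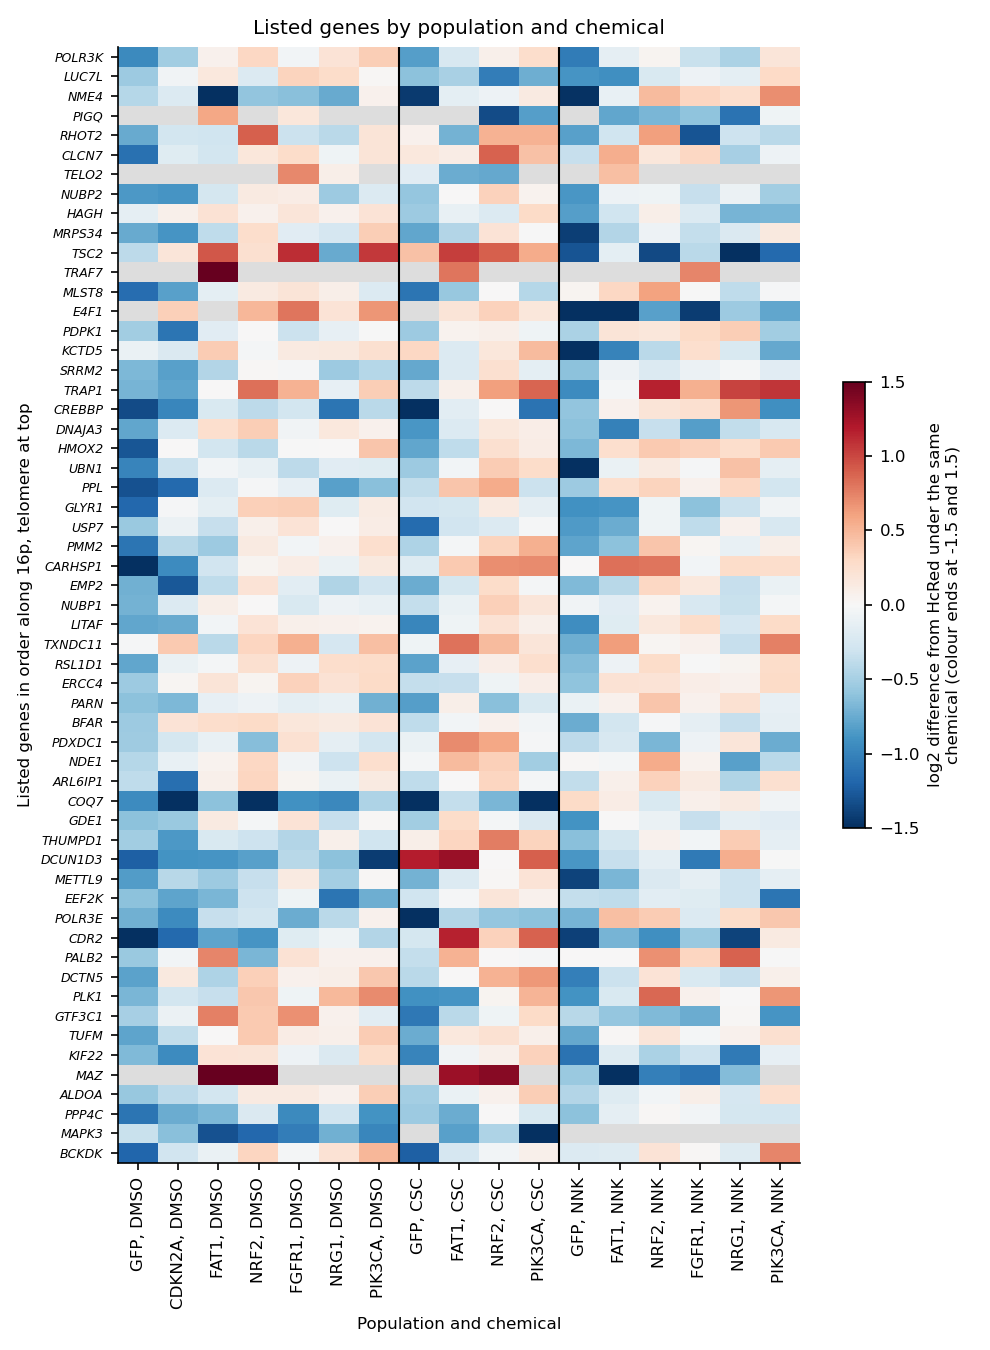
Rows are the listed genes in order along 16p and columns are populations under 3 chemicals, with colour giving the log2 difference from HcRed cells under the same chemical, cut at -1.5 and 1.5, and grey where a gene was not fitted. The GFP columns are blue in nearly all rows, with 52 of 52 fitted members below 0 under DMSO, and the NRF2, FGFR1 and PIK3CA columns are mixed.

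The knockout populations were also set against their own control. In FAT1 against GFP cells under DMSO the median of 54 members was 0.60, and limma called 15 higher, as were 6.49% of all genes. DESeq2 called 7 higher, and 8 were called without replicate 2. Values above 0 were found for 50 of the 54 (49.2% of all genes), among them PALB2 at 1.27 (SE 0.35), PPL at 1.08 (SE 0.28) and POLR3K at 1.00 (SE 0.14). In CDKN2A against GFP cells the median was 0.36, with 6 called higher (8.6% of all genes) and 2 lower (9.28%). Without replicate 1 the median was 0.15 and without replicate 2 it was 0.22, and 4 were called higher without replicate 1 or 3. ARL6IP1 at -0.74 (SE 0.11) and EMP2 at -0.55 (SE 0.16) were the lower ones, and GLYR1 at 1.17 (SE 0.33), HMOX2 and DCTN5 at 0.96 (SE 0.19) were among those called higher. These comparisons share wells with those against HcRed cells and are not independent of them.

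Along the chromosome the difference in GFP cells under DMSO was similar over the stretches of 16p and absent from the medians of 16q. All 16p genes that were fitted had medians of -0.70 from 0 to 5 Mb, -0.56 from 5 to 15 Mb, -0.66 from 15 to 25 Mb and -0.74 from 25 to 36 Mb. On 16q the medians were 0.16 from 36 to 65 Mb and 0.09 from 65 to 91 Mb. Spearman's rho between position and difference was 0.03 over 52 members and -0.01 over 222 genes of the arm, given as a description across genes of the same wells. Under NNK it was 0.27 over 53 members and 0.19 over 204 genes, and under CSC -0.09 over 52 and 0.03 over 200. In CDKN2A cells the 4 stretches of 16p had medians of -0.32, -0.18, -0.33 and -0.37. In FAT1 cells they had -0.14, -0.26, -0.14 and -0.27, and the 16q stretches had -0.19 and -0.14.

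**Figure D4:**
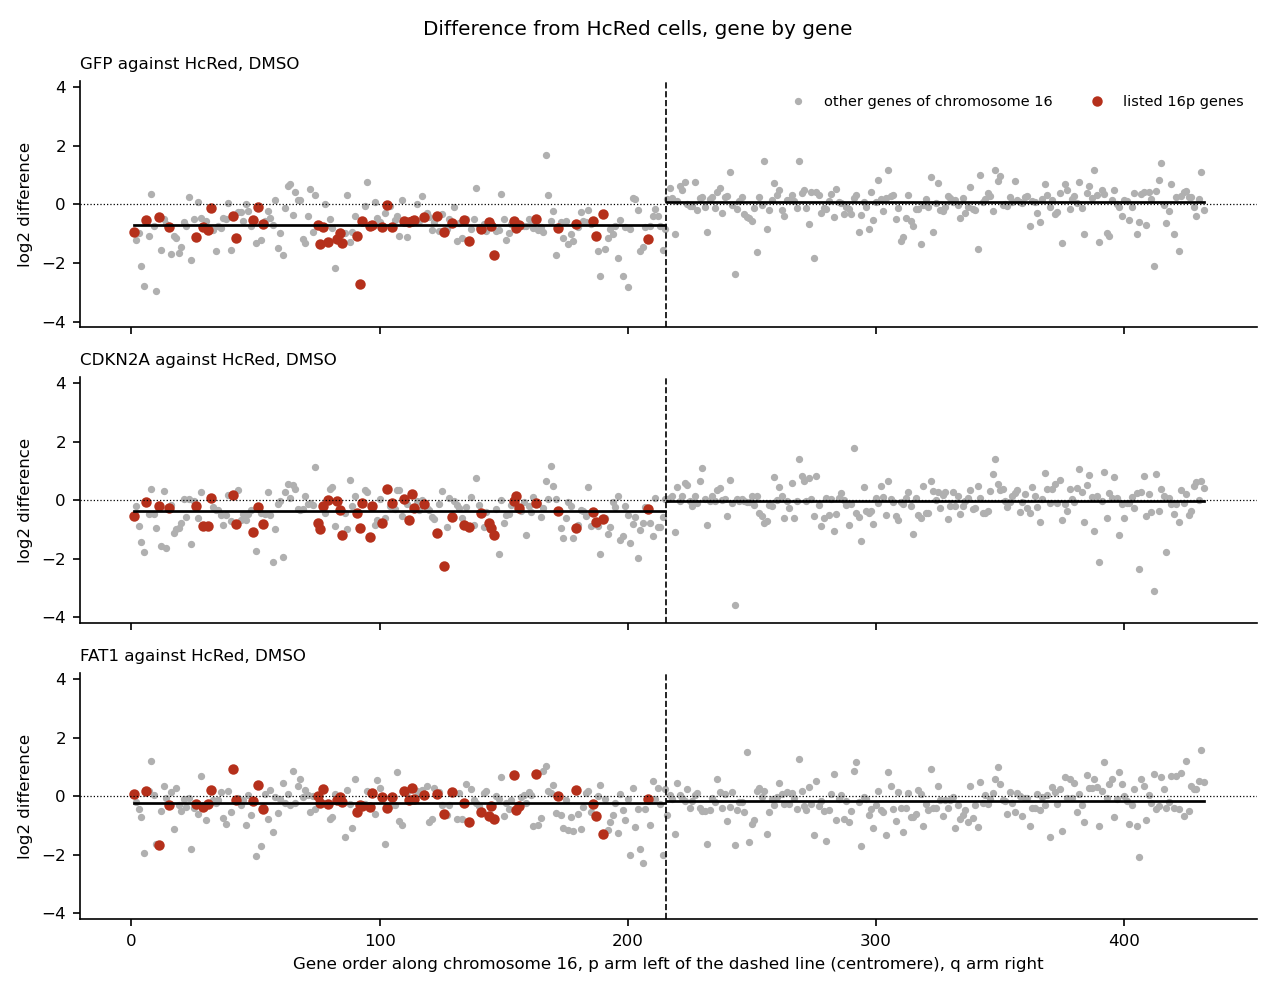
Each point is a gene of chromosome 16, in gene order on the x axis, with its log2 difference from HcRed cells under DMSO on the y axis, listed genes in red and others in grey, and black lines at the median of each arm. Over 215 genes of 16p and 217 of 16q the medians were -0.71 and 0.09 in GFP, -0.37 and -0.01 in CDKN2A and -0.23 and -0.16 in FAT1 cells.

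The genes of the arm outside the list also had a median below 0. In GFP cells 170 of them were fitted, with a median of -0.66 and 140 below 0 (82.4%), and their SD was 0.73 against 0.43 among the members. Under CSC their median was -0.74 and that of the members -0.54, and the difference between members and other genes was not tested. The 6 with the highest level were all below 0 in GFP and in CDKN2A cells: RPS15A, a ribosomal protein, was at -0.59 (SE 0.02) and -0.63 (SE 0.09). RPS2, another ribosomal protein, was at -0.80 (SE 0.07) and -0.51 (SE 0.12), and UQCRC2, of respiratory complex III, at -0.66 (SE 0.08) and -0.92 (SE 0.13). TCEB2, which encodes elongin B, and NSMCE1, of the SMC5-SMC6 complex, were at -0.57 and -0.66 in GFP cells. PRSS8, a serine protease of epithelia, was at -0.40 (SE 0.11) in GFP and -1.21 (SE 0.14) in CDKN2A cells. In FAT1 cells these 6 ranged from 0.03 for NSMCE1 to 0.50 for PRSS8. The arm itself was proposed from these values, so the medians of its stretches and other genes, and its rank below, are descriptions only. The genome was taken as 24 parts, that is whole chromosomes with chromosome 16 split into its arms. Among these 16p had the lowest median in GFP cells (-0.67 over 222 genes). It had the second lowest in CDKN2A cells (-0.32, after chromosome 10 at -0.44) and the seventh lowest in FAT1 cells (-0.15). The other chromosomes were not split, so a difference on a single arm of theirs would be diluted by the other arm.

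GFP cells were also compared with HcRed cells in other wells of the same populations, under CSC and NNK. The members were chosen with the populations under every chemical in view, so these values are descriptions too and no independent repeat. Under CSC the median of 52 members was -0.54, with 46 below 0 (49.8% of all genes) and 12 called lower (4.39%), and under NNK the median of 53 was -0.70, with 48 below 0 (50.6%) and 15 called lower (4.48%). DESeq2 called 7 and 9, the CSC count was 7 without replicate 2 and 6 without replicate 3, and the NNK count was 9 without replicate 3. POLR3K had 97.5, 116 and 108 CPM in HcRed and 63.4, 57 and 61 CPM in GFP wells under CSC, and 141, 118 and 119 CPM against 54, 54.6 and 77.7 CPM under NNK. LITAF had 132, 147 and 143 CPM against 76.6, 55.3 and 87.9 CPM under CSC, and 143, 168 and 175 CPM against 81.8, 95.3 and 85.9 CPM under NNK. In neither gene did the populations overlap under either chemical. Of 51 members fitted under DMSO, CSC and NNK, 40 were below 0 under all 3, against 26.2% of all genes. The exceptions were CARHSP1, CLCN7, COQ7, DCUN1D3, KCTD5, MLST8, NDE1, PALB2, RHOT2, THUMPD1 and TSC2, named after their values were seen.

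Whether the chemicals altered the difference between GFP and HcRed cells was tested with an interaction term. Limma called 0 of 52 members for CSC and 0 of 53 for NNK, where 0.0453% and 0% of all genes were called. At an unadjusted p under 0.05 the counts were 3 and 1, and edgeR and DESeq2 also called 0. The medians of the interaction were 0.10 for CSC and 0.03 for NNK, with a median SE per gene of 0.51 and 0.53, so a change of the size of the arm's own difference could be missed in a single gene.

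In FAT1 cells the members' medians against HcRed cells were -0.08 under CSC (0.06 without replicate 2) and -0.17 under NNK. The member called under CSC was PLK1, the mitotic kinase, at -0.89 (SE 0.31), against 5.18% of all genes called lower, and those under NNK were GLYR1 at -0.88 (SE 0.30) and EMP2 at -0.42 (SE 0.13), against 5.53%. DESeq2 called 0 under both, and leaving out any replicate gave 0 under CSC. Without replicate 2 the NNK count was 0 and without replicate 3 it was 1. HcRed cells had 1 well with a 1-digit number under BaP. The populations with 3 such wells were therefore set against GFP cells, with medians of 0.67 for FAT1, 0.98 for NRF2, 0.79 for NRG1 and 0.80 for PIK3CA. Limma called 14 (5.45% of all genes), 25 (7.45%), 15 (4.95%) and 20 (8.01%) members higher, while DESeq2 called 9, 16, 7 and 13. Without replicate 3 the FAT1 count was 6, without replicate 1 the NRF2 count was 15, and without any replicate the NRG1 count was 8. Against the single HcRed well the medians were -0.82 for GFP, -0.42 for CDKN2A and -0.18 for FAT1 cells, values with no test of their own because the control had 1 well. With the 2-digit HcRed wells added as separate samples they were -0.79, -0.41 and -0.13.

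The chemicals themselves were compared with DMSO across populations, a contrast that did not choose the members. The members had a median of 0.01 under CSC, -0.02 under BaP and -0.01 under NNK. The mean of the members differed from DMSO by -0.11 to 0.07 log2 CPM over the populations with 3 wells under both. Single genes did change, and the calls below are from limma with adjustment over all genes tested. Under CSC and BaP the number of members called was close to the share of all genes called. Under NNK it was somewhat above that share, and the excess was not tested. The calls are therefore given for single genes and not as a trait of the arm. Each chemical had plate rows of its own, so chemical and plate row cannot be told apart.

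Under CSC 3 of 54 members passed (5.82% of all genes). ARL6IP1 fell across 5 populations, with means going from 782 to 651 CPM in HcRed, 599 to 503 in GFP, 822 to 654 in FAT1, 974 to 813 in NRF2 and 854 to 647 in PIK3CA cells. Its log2 difference was -0.30 (SE 0.03, adjusted p = 9.65e-15, 30 wells). PPL fell by 0.58 on the log2 scale (SE 0.12, adjusted p = 0.000629), from means of 23.6 to 12.1 CPM in HcRed and 9.1 to 8.37 CPM in GFP cells. ALDOA rose by 0.14 (SE 0.04, adjusted p = 0.0383), and passed under 7 of 13 alternatives, against 13 for ARL6IP1 and 12 for PPL. Without replicate 2 of every group 1 member passed.

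Under BaP 5 of 55 members passed (9.11% of all genes). HMOX2 rose across 5 populations, with means going from 9.99 to 13.6 CPM in GFP, 20 to 27.8 in FAT1, 18.3 to 38.1 in NRF2, 24.5 to 29.4 in NRG1 and 32.5 to 38.4 CPM in PIK3CA cells. Its log2 difference was 0.47 (SE 0.10, adjusted p = 0.00109, 30 wells). LITAF rose by 0.15 (SE 0.05, adjusted p = 0.038). ARL6IP1 fell by 0.17 (SE 0.03, adjusted p = 5.06e-06), EMP2 fell by 0.25 (SE 0.06, adjusted p = 0.000762) and THUMPD1 fell by 0.36 (SE 0.11, adjusted p = 0.0264). The mean of EMP2 went from 78.5 to 58 CPM in GFP and from 149 to 115 CPM in NRF2 cells, and in PIK3CA cells it was at 107 and 109 CPM. ARL6IP1 and EMP2 passed under 13 of 13 alternatives, HMOX2 under 11, and LITAF and THUMPD1 under 9. Without replicate 2 of every group 2 members passed and without replicate 3, 3.

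Under NNK 6 of 55 members passed (7.22% of all genes), 5 of them higher. LITAF rose across 7 populations, with means going for example from 133 to 162 CPM in HcRed and from 76.8 to 87.7 CPM in GFP cells, with a log2 difference of 0.27 (SE 0.06, adjusted p = 0.000751, 42 wells). HMOX2 rose by 0.34 (SE 0.09, adjusted p = 0.0121), SRRM2 by 0.34 (SE 0.10, adjusted p = 0.0135), MRPS34 by 0.31 (SE 0.10, adjusted p = 0.0417) and PPP4C by 0.42 (SE 0.14, adjusted p = 0.0426). THUMPD1 fell by 0.33 (SE 0.10, adjusted p = 0.0294). NRG1 replicate 2 under NNK stood apart, with ARL6IP1 at 433 CPM against 683 and 716 CPM in the other NRG1 wells. Without it 18 members passed, and the share of all genes called in that fit is not given. The 7.22% belongs to the fit with that well, so the 18 cannot be set against it or read as a result about the members. LITAF passed under 14 of 14 alternatives, HMOX2, SRRM2 and MRPS34 under 12, and PPP4C and THUMPD1 under 10. Without replicate 1, 2 or 3 of every group 3, 10 and 1 members passed.

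**Figure D5:**
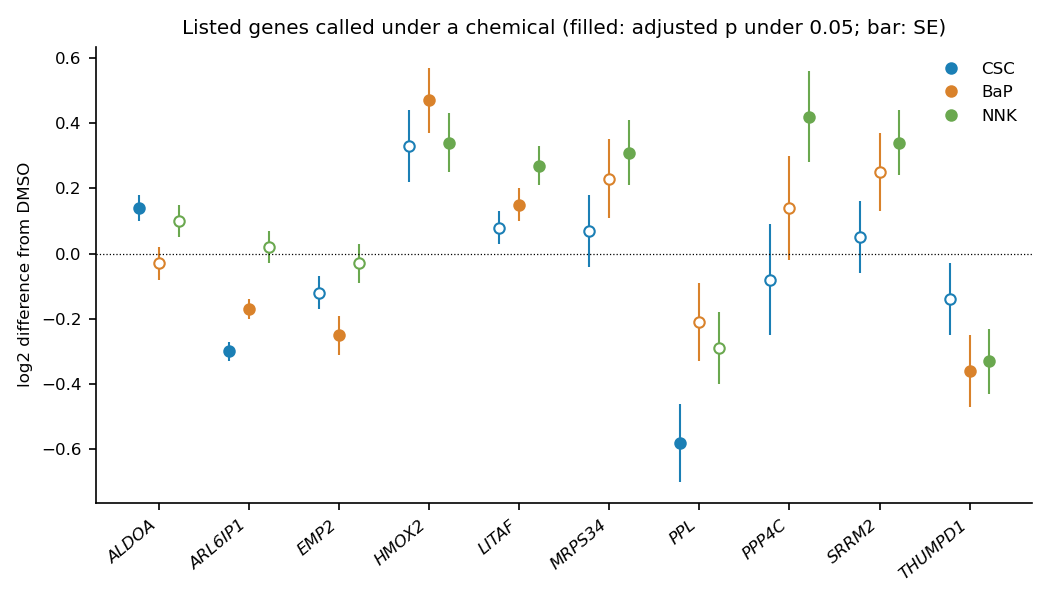
Points are log2 differences from DMSO across populations for the 10 listed genes called under at least 1 chemical, with bars of 1 SE, filled where the limma adjusted p was under 0.05. ARL6IP1 was lower under CSC (-0.30) and BaP (-0.17) and at 0.02 under NNK, and HMOX2 was at 0.33, 0.47 and 0.34.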

How the data were processed

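RNA of AALE cells was profiled by 3′DGE in 95 wells. The authors deposited UMI counts by gene, not normalized, which had reached them already quantified. Reads had been aligned to hg19 RefSeq transcripts with BWA 0.7.10, per the submitters' processing notes and the study's methods, and reads of 1 gene sharing a UMI and a well barcode were counted once. Genes that overlap or have near-identical copies may be miscounted.

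Titles of the samples gave each well its group and number. Wells with 2-digit numbers, 13 in 6 groups, were kept out of the main comparisons. Counts were analysed in R 4.3.3 with limma 3.58.1 (voom weights), with TMM factors computed by edgeR 4.0.16. Each fit held the groups being compared and genes with a mean count above 1 in the fitted wells, two-sided, with Benjamini-Hochberg adjustment over all genes tested and a threshold of 0.05. Chemicals were compared across populations with population as a covariate. CPM values carry TMM factors, and log2 CPM a prior count of 2. Total counts, from 692446 to 1895735, set the precision. The scripts were tested on simulated counts.

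Alternatives were edgeR's quasi-likelihood test, DESeq2 1.42.0, other scaling factors, other filters on low counts, 1 fit over all groups, a replicate block, inclusion of the 2-digit wells, and leaving out replicates. Members and lists were chosen with earlier results of these data known. Named genes were the 2 of highest level in each role, the 5 with the largest and the 5 with the smallest mean difference in GFP, FAT1 and CDKN2A cells among members with a mean count of at least 10, those called under a chemical, those next to the mean count of 1, and the 6 other genes of the arm with the highest level. Further genes were named after their values were seen. Positions came from a GENCODE annotation of hg19, which matched 93.9% of symbols, 1525 through older names. Same-numbered wells were compared between HcRed, GFP, FAT1 and CDKN2A cells within DMSO, CSC or NNK. They did not deviate together, with correlations from -0.0604 to 0.104 over 36 pairs. Same-numbered wells of a population under different chemicals were not checked.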

Additional observations from a re-analysis of the deposited data

Results flagged for a closer look

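CDKN2A cells under CSC and NNK had mainly wells with 2-digit replicate numbers, which entered only alternatives of the chemical comparisons above. The mean log2 CPM of the members in 3 such wells under CSC ran from 3.38 to 3.45, and in 2 under NNK it was 3.43 and 3.44. Relative to the HcRed mean under DMSO these were differences of -0.48 and -0.46, which also hold any difference of chemical and plate row. The HcRed mean was 3.90 under DMSO, 3.79 under CSC and 3.87 under NNK. They were picked out because they lie outside the main measurement and beyond the range of the HcRed controls, which under CSC ran from 3.71 to 3.89 and under NNK from 3.74 to 3.97. In the 2-digit wells of FGFR1 under BaP and CSC the mean differed from that of HcRed cells under DMSO by -0.03, in those of NRG1 under CSC by -0.15, and in those of HcRed under BaP by -0.11.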

How the results depend on the processing

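Of 854 recomputed values, 711 stayed as reported by direction and threshold or within 1.5 times for counts, 112 moved, 31 lost a call and 0 reversed a call. DESeq2 called 0 members lower in FAT1 cells (3 in limma) and 5 in CDKN2A cells (13), and edgeR called 5 under CSC (3). A single fit over all groups moved the FAT1 median to -0.20. With all wells as separate samples 7, 10 and 11 members passed under CSC, BaP and NNK, and with wells that share a first digit summed 6, 10 and 11. Without NRG1 NNK replicate 2, 18 passed under NNK. The share of all genes is not given for these alternative counts, so they are not results about the members. In NRF2, PIK3CA and NRG1 cells under DMSO the single fit called 1, 1 and 0 members higher (2, 3 and 1 in limma), and in FAT1 cells under NNK 0 lower (2), where edgeR called 1. The cause of these shifts was not tested. The GFP difference in mean log2 CPM was -0.72 with the median of members and -0.73 over members with a mean count of at least 10. Without TMM factors it was -0.23 for FAT1 and -0.33 for CDKN2A cells.

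Leaving out replicates gave medians from -0.77 to -0.66 and 12 to 17 calls in GFP cells, -0.17 to -0.06 and 1 to 3 in FAT1 cells, and -0.53 to -0.38 and 7 to 14 in CDKN2A cells. For the chemicals it gave 1 to 4 calls under CSC, 2 to 4 under BaP and 1 to 10 under NNK. The median of the NNK interaction ran from -0.03 to 0.13. The same step took the FAT1 median under CSC to between -0.09 and 0.06.

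With a replicate block 18, 2 and 14 members were called lower in GFP, FAT1 and CDKN2A cells, and the medians were -0.69, -0.13 and -0.40. Between the populations checked, within a chemical, the numbers did not pair the wells, with a median correlation of 0.0098. Depth limits the members with few counts, since only 31 of 54 had a mean count of at least 10. The groups compared between populations under DMSO, CSC and NNK hold no 2-digit wells, so including such wells leaves those fits as they are. CDKN2A, FGFR1 and NRG1 cells under CSC and CDKN2A cells under NNK, which do hold them, were not compared with HcRed cells in a fit.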
